A study of Mus musculus with 20 samples.

Results

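The response of tumour macrophages to PD-L1 blockade was set against the response of tumour monocytes, gene by gene, as the macrophage effect minus the monocyte effect. All 20 libraries of the series enter this contrast, 5 in each of 4 groups. Macrophages and monocytes were sorted from tumours of MC38, a mouse colon carcinoma cell line. They came either from control tumours (the groups labelled Macrophage ctrl and Monocyte ctrl) or from tumours treated with an antibody to PD-L1 (Macrophage aPDL1 and Monocyte aPDL1), and RNA was taken 7 days after treatment began. Strain, age, antibody dose, control treatment and sort gates are not stated in the labels. Whether the 5 libraries within a group stem from different mice is not stated either, and the p-values therefore cover the spread among these samples only, which could be technical.

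PD-L1, encoded by Cd274, is the ligand of the inhibitory T cell receptor PD-1 and is displayed by tumour cells and by myeloid cells. T cells released from this inhibition secrete interferon-gamma, which acts on genes for antigen presentation, chemokines and guanylate-binding proteins. Classical monocytes enter tumours from the blood, carry Ly6C, and can mature there into macrophages that express complement C1q, Apoe and Mrc1.

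The sort labels were checked against markers. The 16 classical monocyte markers summed to between 10500 and 22100 CPM (the count scaled to a library size common to all libraries) in the monocyte libraries and to between 1290 and 2650 CPM in the macrophage libraries. The 20 macrophage markers summed to between 25100 and 41100 CPM in macrophages and to between 8740 and 13000 CPM in monocytes. Library totals lay between 30191509 and 36514133 counts. Fibroblast markers moved with treatment in both populations: all 19 were tested, and their sum was between 144 and 2920 CPM in control macrophages, 88.6 and 489 CPM in treated macrophages, 443 and 4540 CPM in control monocytes and 90.1 and 722 CPM in treated monocytes. The 6 control libraries highest in these markers, 3 of each population, are left out in a repeat of the main results below. The sum of 19 T and NK cell markers was 130 to 289 CPM in control and 359 to 482 CPM in treated monocytes, and up to 227 and 447 CPM in control and treated macrophages. It was carried mainly by Ccl5 and Klrk1, and other members moved unevenly. The T cell receptor component Cd3d averaged 0.841 and 0.809 CPM in control and treated macrophages and 0.869 and 1.12 CPM in monocytes. Gzma averaged 1.72 and 4.81 CPM in macrophages and 4.91 and 13.8 CPM in monocytes. Gzmb averaged 3.87 and 7.26 CPM in macrophages and 6.6 and 12.4 CPM in monocytes. Cd247 was lower after treatment, at 9.62 and 7.51 CPM in macrophages and 12.2 and 11.3 CPM in monocytes. Control and treated libraries overlapped for Cd3d, Gzma, Gzmb and Cd247. Of the 19, 1 rose in macrophages and 2 in monocytes, where 1.73% and 9.92% of all genes rose. These counts are too near the background to be a result about the markers, and their part in the results was not tested.

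Macrophage and monocyte libraries with neighbouring sample numbers are called pairs here, numbered 1 to 5 in controls and 6 to 10 in treated tumours, and the libraries of a group are listed in that order. The 2 members of every pair deviated together from their group means, with correlations from 0.218 to 0.722, so a fit with the pair as a block is given where it changes a call. The block is fixed in edgeR for a difference and random in limma-voom for the effect within a population. Every control sample number is lower than every treated one, and an effect of this order and the effect of treatment cannot be told apart.

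In the edgeR fit without the block, no gene was past the test for a difference between the populations. No gene past the test in both went in opposite directions. In macrophages 715 of 15390 genes (4.65%) were past an adjusted p of 0.05 in edgeR's quasi-likelihood test with Benjamini-Hochberg adjustment, 266 higher (1.73%) and 449 lower (2.92%) after treatment. In monocytes 3900 genes (25.3%) passed, 1526 higher (9.92%) and 2374 lower (15.4%). Of the macrophage genes 78.3% also passed in monocytes, and of the monocyte genes 14.4% passed in macrophages: 560 genes in all (3.64%), 207 higher (1.35%) and 353 lower (2.29%), with none in opposite directions. Over all genes 77.6% had the same sign of effect in both, a share that is not independent evidence of a common response, since the libraries of a pair deviate together. The difference of the effects passed for 0 genes, while 980 (6.37%) had an unadjusted p under 0.05. With DESeq2 5 genes passed, with limma-voom 0, and with the pair as a block in edgeR 3 (0.0195%). In that blocked fit 2394 genes (15.6%) had an unadjusted p under 0.05. The median standard error of the difference was 0.156 with the block and 0.233 without it. A missed threshold does not show that the populations responded alike, so likeness was read from the 95% interval of the difference, as described below.

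**Figure D1:**
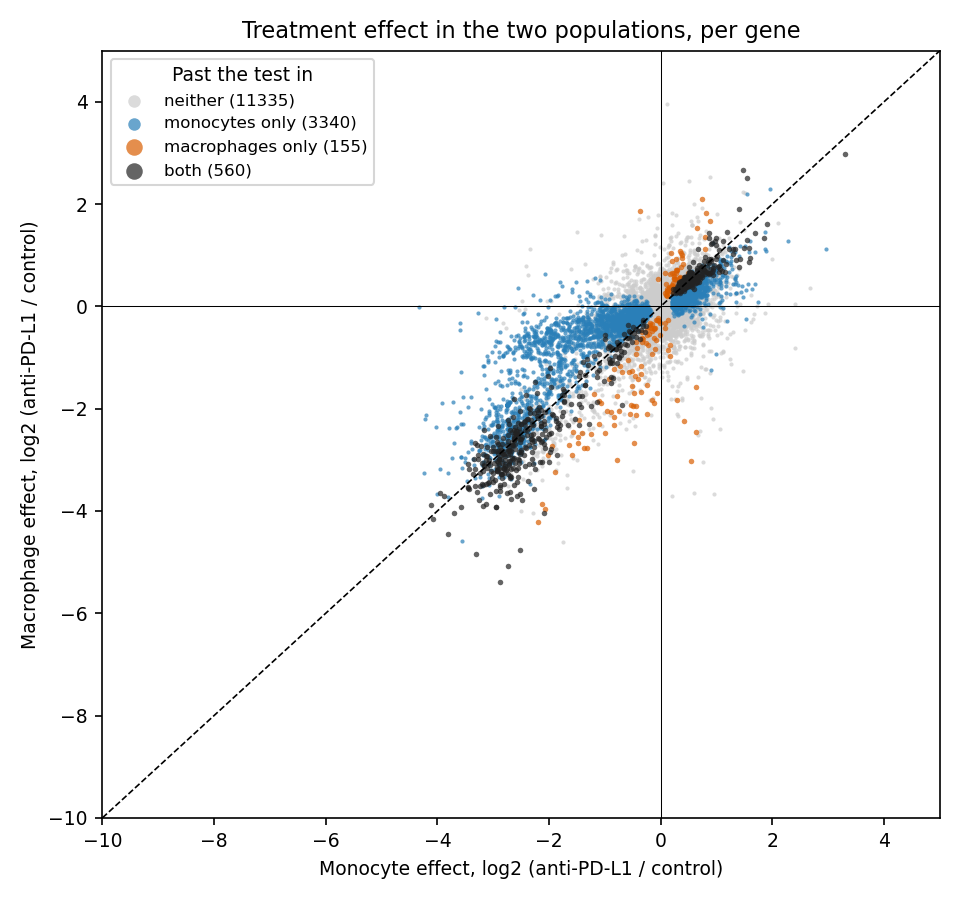
Each point is a gene, with the log2 change after anti-PD-L1 in monocytes on the x axis and in macrophages on the y axis; the dashed line marks equal effects and 1 gene lies outside the axes. The 560 genes past the test in both (black) follow the line, most of the 3340 genes past it in monocytes only (blue) fall nearer to 0 on the macrophage axis, and the 155 past it in macrophages only (orange) fall nearer to 0 on the monocyte axis.

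These counts changed with the libraries and covariates used. When those 6 control libraries were left out, which leaves 2 in each control group, 70 genes passed in macrophages and 83 in monocytes. A covariate for the mean fibroblast level, which itself differs with treatment, left 2 and 3. The part of the fibroblast signal and of the smaller groups in these counts was not tested. With any 1 of the 20 libraries left out, the macrophage count ran from 14 to 1928 and the monocyte count from 1883 to 5359. The 207 genes higher in both populations kept the sign in both without the 6 libraries, with medians of 0.51 in macrophages and 0.39 in monocytes on the log2 scale. Of the 353 genes lower in both, 325 could be estimated without them, and the medians were -0.72 and -1.01, against -2.65 and -2.53 with all libraries.

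With the pair as a block, the genes past the test for a difference were Iigp1, Samsn1 and Chpf. Iigp1, an interferon-induced GTPase that attacks vacuoles around intracellular parasites, was at 245, 225, 259, 220 and 400 CPM in control macrophages and at 393, 259, 485, 453 and 382 CPM in treated ones. Its monocyte level was 108, 102, 119, 105 and 205 CPM in controls and 305, 218, 447, 310 and 318 CPM after treatment. All treated monocyte libraries were above all control ones, while the macrophage groups overlapped. The log2 effect was 0.55 ± 0.22 (SE, n = 5 against 5, adjusted p = 0.14, edgeR) in macrophages and 1.32 ± 0.23 (adjusted p = 0.0034) in monocytes. The difference was -0.78 with a 95% interval from -1.44 to -0.12 (adjusted p = 0.73). With the block it was -0.79, from -0.98 to -0.60 (adjusted p = 0.0092). Without the 6 control libraries the difference was -0.84, with no call.

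Samsn1, an adaptor protein of immune cells with SH3 and SAM domains, was at 61.7, 65.1, 89.4, 52.5 and 60.1 CPM in control macrophages and at 80.9, 89.5, 62.1, 53.2 and 57.3 CPM in treated ones. Control monocytes had 85.1, 78.4, 90.9, 64.3 and 79.1 CPM and treated monocytes 160, 159, 109, 98.9 and 107 CPM. The macrophage groups overlapped throughout and the monocyte groups did not overlap. Its log2 effect was 0.06 ± 0.17 in macrophages and 0.68 ± 0.17 (adjusted p = 0.011, edgeR) in monocytes, and the blocked difference was -0.60, from -0.78 to -0.41 (adjusted p = 0.046), against an adjusted p of 0.71 without the block.

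Chpf, a factor needed to polymerise chondroitin sulfate chains, went the other way. It was at 9.63, 5.76, 22.8, 25.7 and 18.3 CPM in control macrophages and at 14.4, 8.73, 7.9, 10.1 and 10.3 CPM in treated ones. Monocytes held 8.9, 2.87, 27.3, 33.6 and 20.4 CPM in controls and 5.4, 2.02, 0.907, 2.22 and 1.42 CPM after treatment. Groups overlapped in both populations, and the 3 control pairs with high Chpf were those highest in fibroblast markers. Its log2 effect was -0.68 ± 0.52 in macrophages and -2.95 ± 0.57 (adjusted p = 0.0039, edgeR) in monocytes. The difference was 2.28, from 0.70 to 3.85 (adjusted p = 0.69), and with the block 2.24, from 1.56 to 2.92 (adjusted p = 0.046). Without the 6 control libraries it was 1.73 with no call. In all 5 treated pairs the macrophage-to-monocyte ratio of Chpf was above that of all 5 control pairs, and for Iigp1 and Samsn1 below it, which held in those directions for 0.897% and 1.68% of all genes.

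**Figure D2:**
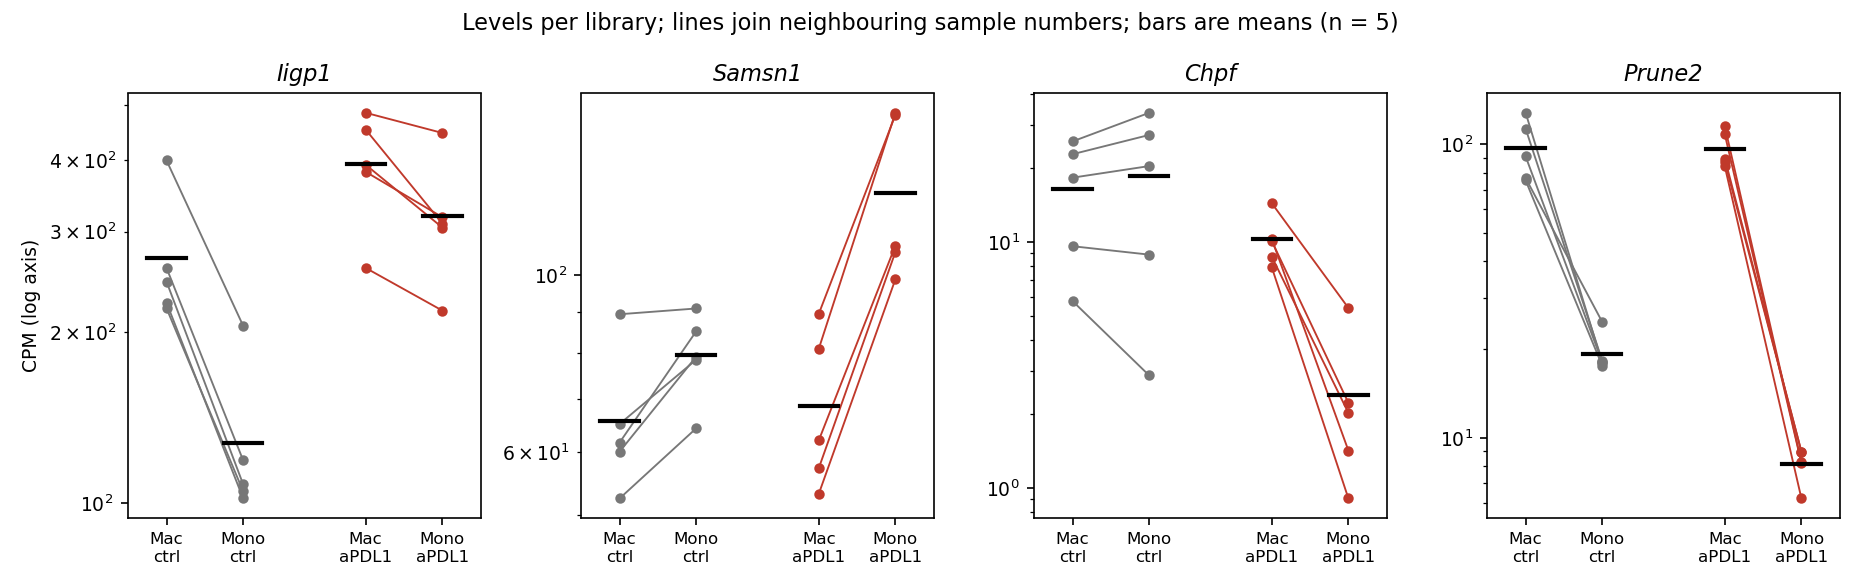
CPM on a log axis in each of the 20 libraries for Iigp1, Samsn1, Chpf and Prune2; grey lines join the macrophage and monocyte libraries of a control pair, red lines those of a treated pair, and black bars are means of 5. The slope from macrophage to monocyte differs between control and treated pairs: it flattens for Iigp1 and steepens for the other 3.

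These calls depended on single pairs. With the block and 1 pair left out, 0 genes passed without pair 4 or pair 7, 1 without pair 3, 5, 8 or 9, 2 without pair 6, 3 without pair 10 and 4 without pair 1. Without pair 2 the number was 636, a fit chosen after seeing the data. Pair 2 is the control pair lowest in fibroblast markers. Of the 636 genes 547 were higher in macrophages, and 476 of these were past the test as lower in treated monocytes.

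In monocytes only, 3340 genes were past the test, of which 1319 rose and 2021 fell. The macrophage effect had the same sign for 95.1% of the risers and 95.8% of the fallers, with smaller medians. The risers had a median log2 effect of 0.43 in monocytes and 0.24 in macrophages. The fallers had -1.35 in monocytes and -0.51 in macrophages. Being past the test in 1 population is not a difference between them. Of the 3340, 631 had an unadjusted p under 0.05 for the difference, against 980 of all 15390 genes (6.37%). The 3340 were selected by their monocyte effect, which is part of the difference, so a raised share is built in. Without the 6 control libraries the monocyte medians were 0.24 and -0.42.

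Among the fallers, Prune2 had the smallest p for the difference. It was at 18.3, 18.0, 17.6, 24.8 and 18.1 CPM in control monocytes and at 8.96, 8.25, 6.21, 8.19 and 8.96 CPM in treated ones, with no overlap. Macrophages had 113, 128, 75.3, 76.7 and 90.9 CPM in controls and 89.4, 115, 84.0, 108 and 86.9 CPM after treatment. Its level was about the same in both macrophage groups, 97.0 ± 23.3 and 96.6 ± 13.9 CPM (SD, n = 5). The monocyte log2 effect was -1.25 ± 0.16 (adjusted p = 0.0019, edgeR) and the difference 1.25, from 0.80 to 1.70 (adjusted p = 0.17). DESeq2 called this difference with an adjusted p of 0.00086. With those 6 libraries left out the monocyte effect was -1.18 (adjusted p = 0.011), the macrophage effect -0.32 and the difference 0.85.

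Masp1, a serine protease of the lectin pathway of complement, was at 13 ± 4.19 CPM in control macrophages and 20.3 ± 3.07 CPM in treated ones (SD, n = 5). In monocytes it was at 1.72, 1.27, 6.35, 4.33 and 3.07 CPM in controls and at 1.25, 0.855, 0.837, 0.49 and 0.55 CPM after treatment, without overlap. Its difference was 2.71, from 1.68 to 3.75 (adjusted p = 0.18, edgeR). Sorbs3, which encodes the adhesion adaptor vinexin, averaged 13.8 CPM in control and 13.7 CPM in treated macrophages, and in monocytes 4.87 ± 3.15 and 0.695 ± 0.382 CPM. DESeq2 called the difference for both genes, with adjusted p of 0.00028 and 0.0063. Cd81, a tetraspanin of the macrophage marker list, averaged 470 and 537 CPM in control and treated macrophages and 62.2 ± 21.0 and 29.7 ± 6.82 CPM in monocytes. Meis3, a homeobox transcription factor, averaged 8.76 and 10.4 CPM in macrophages and 3.83 and 1.60 CPM in monocytes. The differences of Sorbs3, Cd81 and Meis3 were 2.79, 1.26 and 1.51. Leaving out the 6 control libraries, the differences of Masp1, Sorbs3 and Cd81 were 1.54, 1.53 and 0.53, and those of all 3 genes were past the edgeR test when Monocyte ctrl replicate 5, the monocyte library of pair 2, was left out.

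Among the 13 lists plotted below, cell cycle genes had the widest gap in median effect between the populations. G2/M and mitosis genes, which include cyclin B2 and the motors and kinases of the spindle, were measured for all 38 listed members. In monocytes 36 fell, where 15.4% of all genes did. In macrophages 0 passed, where 2.92% of all genes fell. The median log2 effect was -0.67 in macrophages and -2.22 in monocytes, against -0.01 and 0.02 over all genes. The difference was positive for 37 of 38, and for 7176 of all 15390 genes. Of the 38, 27 had an unadjusted p under 0.05 as higher in macrophages, which held for 3.79% of all genes. For DNA replication and G1/S genes, 0 of 36 passed in macrophages and 26 fell in monocytes, with medians of -0.29 and -0.96, and 16 had such an unadjusted p. With the block, 25 of the 38 and 13 of the 36 did, against 7.28% of all genes. The macrophage counts of 0 in both lists are too near the background of 2.92% to be a result about them. In bulk RNA, fewer dividing cells and less of this RNA per cell cannot be told apart.

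The monocyte controls differed widely among themselves. Ccnb2, cyclin B2, which drives entry into mitosis with CDK1, was at 56.6, 58.8, 61.8, 54.8 and 46.3 CPM in control macrophages and at 37.5, 54.1, 31.5, 34.7 and 43.8 CPM in treated ones. Control monocytes had 9.43, 4.71, 22.9, 20.4 and 12.6 CPM and treated monocytes 6.84, 4.17, 3.84, 3.20 and 3.95 CPM. Pair 2 lay within the treated monocyte range, while pairs 3, 4 and 5 lay well above it. The monocyte effect was -1.67 ± 0.31 (adjusted p = 0.0036, edgeR) and the difference 1.21, from 0.33 to 2.09. The other cell cycle genes named had the same shape, with higher levels in macrophages. Hmmr, a spindle and hyaluronan-binding protein, averaged 30.7 ± 3.81 and 18.0 ± 6.26 CPM in control and treated macrophages and 8.26 ± 5.40 and 1.05 ± 0.79 CPM in monocytes, where its call (adjusted p = 0.0036, edgeR) was kept in limma-voom (adjusted p = 0.043) and lost there with the random block (adjusted p = 0.065). Mki67, the proliferation marker Ki-67, averaged 248 ± 42.3 and 174 ± 54.4 CPM in macrophages and 39.5 ± 19.1 and 15.5 ± 5.38 CPM in monocytes, with a difference of 0.84 from -0.07 to 1.75. Uhrf1, which maintains DNA methylation at replication, averaged 50.5 and 41.2 CPM in macrophages and 11.7 and 3.6 CPM in monocytes. Dut, a dUTPase that supplies nucleotides for replication, averaged 61.3 and 41.1 CPM in macrophages and 36.4 and 7.52 CPM in monocytes.

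The 3 control monocyte libraries high in cell cycle genes were also those highest in fibroblast markers. The mean G2/M level was 3.18, 1.54, 4.61, 4.61 and 4.02 log2 CPM in control monocytes, where the mean fibroblast level was 4.41, 3.13, 5.39, 6.10 and 5.26 log2 CPM. Treated monocytes had G2/M levels from 1.03 to 2.94 log2 CPM, which overlap the control range. Macrophages had G2/M levels between 5.43 and 5.78 log2 CPM in controls and between 4.41 and 5.41 log2 CPM after treatment, so all 5 treated libraries lay below all 5 controls. The fibroblast level of the control macrophages ranged from 1.71 to 5.55 log2 CPM. In the fit without the 6 libraries the median G2/M effect was -0.62 in macrophages and -0.71 in monocytes and the median difference 0.03. The G1/S difference turned to -0.20, and no member of either list passed in monocytes. With the fibroblast level as a covariate in all 20 libraries the median G2/M difference was 1.39, with -0.10 in macrophages and -1.38 in monocytes.

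**Figure D3:**
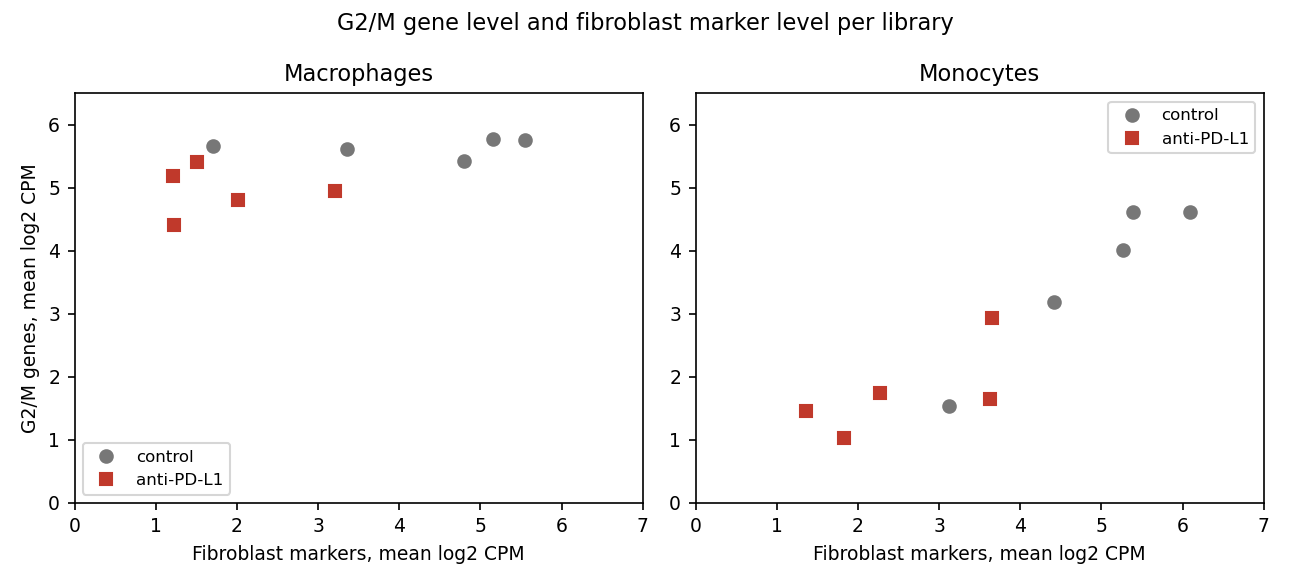
Mean log2 CPM of the G2/M genes (y axis) against mean log2 CPM of the fibroblast markers (x axis) in each library, macrophages on the left and monocytes on the right, controls as grey circles and anti-PD-L1 as red squares. Macrophage libraries stay between 4.41 and 5.78 over the whole x range, and in monocytes the 3 libraries above 4 on the y axis are controls with fibroblast levels above 5.

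The promoters of 2 of these genes are shown because this list fell together in monocytes and its members share short promoter elements. They are the 250 bases upstream of the RefSeq start in GRCm38.p6, in lower case, with capitals for TTTGAA (the letters of the CHR element of cell cycle genes) and CCAAT, both searched on both strands. Ccnb2 lies at chr9:70421555-70421804 and Mki67 at chr7:135716380-135716629, each on the minus strand.
Ccnb2: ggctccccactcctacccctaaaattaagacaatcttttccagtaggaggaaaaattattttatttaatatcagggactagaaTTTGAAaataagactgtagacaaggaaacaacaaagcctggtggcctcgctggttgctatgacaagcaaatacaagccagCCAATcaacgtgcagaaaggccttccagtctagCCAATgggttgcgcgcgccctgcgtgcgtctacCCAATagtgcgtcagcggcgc
Mki67: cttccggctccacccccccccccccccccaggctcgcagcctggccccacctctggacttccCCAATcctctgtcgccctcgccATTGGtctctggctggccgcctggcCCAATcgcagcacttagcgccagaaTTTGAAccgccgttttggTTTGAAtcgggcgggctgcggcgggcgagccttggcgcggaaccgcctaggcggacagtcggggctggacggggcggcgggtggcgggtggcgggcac
CCAAT or its reverse was in 72.7% of the 33 promoters of the G2/M list, and in 58.3% of the 36 of the G1/S list, against 33.8% of all 32851 promoters of this length. TTTGAA was in 33.3% and 13.9%, against 16.0% of all promoters. Over the promoters of the genes tested the shares were 34.7% for CCAAT and 11.3% for TTTGAA, and among genes past the test as lower in monocytes only they were 39.5% and 11.3%. A match is a description of the letters and no evidence of binding.

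Among the risers, interferon genes rose in more members in monocytes than in macrophages. Of 35 interferon-gamma response genes, 13 rose in macrophages and 32 in monocytes, with none lower, where 1.73% and 9.92% of all genes rose. Of the 35, 11 were called alike, where 1.49% of all genes were. Their median log2 effect was 0.65 in macrophages and 0.92 in monocytes. The difference was negative for 34 of 35, and for 8214 of all 15390 genes. Its median was -0.24, where all genes had -0.02. For 3 of the 35 the unadjusted p of the fit without the block was under 0.05 as lower in macrophages (2.58% of all genes). Of 34 type I interferon genes, 2 rose in macrophages and 27 in monocytes, with medians of 0.36 and 0.64. Without the block, 0 of these 34 had an unadjusted p under 0.05 as lower in macrophages. With the block, 12 of the 35 and 17 of the 34 had an unadjusted p under 0.05 as lower in macrophages, which held for 8.28% of all genes. When the 6 control libraries were omitted, the median differences were 0.02 and -0.07, while the medians stayed above 0 in each population. Single libraries also moved these gaps: the interferon-gamma difference ran from -0.32 without Monocyte ctrl replicate 1 to -0.06 without Macrophage ctrl replicate 3, and the type I difference ran from -0.42 without Monocyte ctrl replicate 5 to -0.10 without Macrophage ctrl replicate 4.

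**Figure D4:**
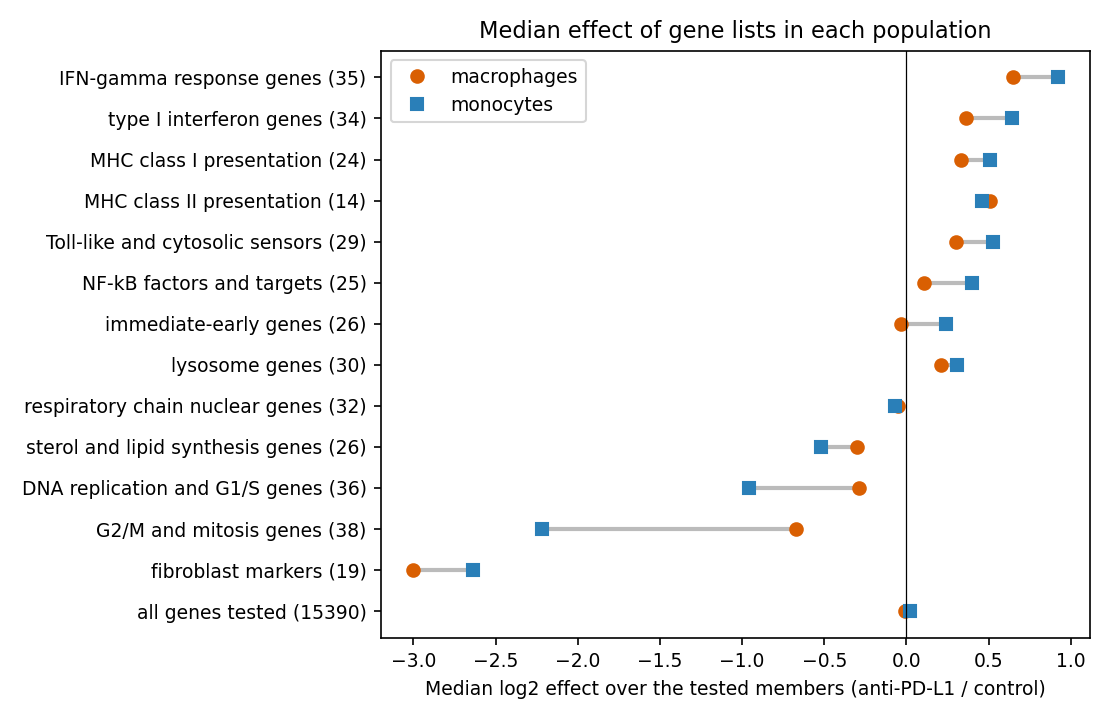
Median log2 effect of anti-PD-L1 over the tested members of 13 gene lists and over all genes (number of members in brackets), with orange circles for macrophages and blue squares for monocytes. The G2/M list has the widest gap, from -0.67 to -2.22, the MHC class II list nearly coincides, and the interferon lists lie to the right of 0 in both with monocytes further out.

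Slamf7, a receptor of phagocytes and lymphocytes, averaged 140 ± 43.1 and 211 ± 42.7 CPM in control and treated macrophages. Its monocyte levels ran from 47.6 to 95.8 CPM in controls and from 119 to 249 CPM after treatment, without overlap. Its effects were 0.60 ± 0.24 (adjusted p = 0.12, edgeR) and 1.34 ± 0.24 (adjusted p = 0.0034), and their difference -0.74, from -1.44 to -0.05. Unlike the list median, it was of similar size without the 6 control libraries, at -0.76. Other interferon genes showed the same order with smaller gaps. Herc6, a ubiquitin ligase family member induced by interferon, averaged 77.5 and 107 CPM in macrophages and 95.4 and 178 CPM in monocytes. Ddx60, an interferon-induced helicase, averaged 37.3 and 43.8 CPM in macrophages and 39.6 and 65.0 CPM in monocytes. Cxcl9, the interferon-gamma-induced chemokine for CXCR3, averaged 1177 ± 356 and 1684 ± 210 CPM in macrophages and 582 ± 187 and 1076 ± 260 CPM in monocytes. Its effect passed in monocytes (0.89 ± 0.23, adjusted p = 0.012, edgeR) and not in macrophages (0.52 ± 0.23, adjusted p = 0.18), with a difference of -0.37 from -1.05 to 0.31. Nos2, inducible nitric oxide synthase, averaged 88.0 ± 28.7 and 183 ± 53.6 CPM in macrophages and 189 ± 74.8 and 609 ± 336 CPM in monocytes, with effects of 1.06 and 1.69 and an interval of the difference from -1.65 to 0.39.

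Counts of inflammatory genes are read against the 1.73% of all genes that rose in macrophages and the 9.92% that rose in monocytes. Of 25 NF-kB factors and targets, 1 rose in macrophages and 6 in monocytes, with medians of 0.11 and 0.40, and the difference was negative for 23. A negative difference was found for 8214 of all 15390 genes. Of 29 Toll-like and cytosolic sensors, 3 rose in macrophages and 19 in monocytes, with medians of 0.30 and 0.53. Of 26 immediate-early genes, 1 fell in macrophages, and 2 rose and 1 fell in monocytes. The macrophage counts of the NF-kB and immediate-early lists and the monocyte count of the immediate-early list are too near the background to be a result about them. The immediate-early medians were -0.03 and 0.24, with a negative difference for 25 of 26. With the block, 11 of the 25, 12 of the 29 and 9 of the 26 had an unadjusted p under 0.05 as lower in macrophages (8.28% of all genes). Without the block, 1 member of each list did (2.58% of all genes). With those 6 libraries left out the median differences of these lists were 0.01, 0.00 and -0.03. With any 1 library left out the NF-kB difference ran from -0.28 to -0.07. Cxcl2, a chemokine for neutrophils, was at 517, 434, 466, 522 and 401 CPM in control macrophages and at 394, 614, 490, 328 and 431 CPM in treated ones. Control monocytes had 875, 756, 637, 771 and 692 CPM and treated monocytes 1164, 1411, 1682, 749 and 1058 CPM. The groups overlapped in macrophages and, through 1 treated library, in monocytes. The difference was -0.75, from -1.29 to -0.22 (adjusted p = 0.69, edgeR). Tnfaip3, which encodes the NF-kB inhibitor A20, averaged 341 and 302 CPM in macrophages and 496 and 728 CPM in monocytes, with a difference of -0.73 from -1.16 to -0.29. Klf6, a zinc finger transcription factor, averaged 396 and 430 CPM in macrophages and 364 ± 36.0 and 551 ± 56.8 CPM in monocytes. Il1rn, the interleukin-1 receptor antagonist, averaged 363 and 484 CPM in macrophages and 814 and 1716 CPM in monocytes, with a monocyte effect of 1.08 ± 0.27 (adjusted p = 0.010). Cgas and Clec7a had near-equal macrophage means before and after treatment. Cgas, the cytosolic DNA sensor, averaged 39.9 and 40.3 CPM in macrophages and 27.7 and 37 CPM in monocytes. Clec7a, the beta-glucan receptor Dectin-1, averaged 379 and 377 CPM in macrophages and 880 and 1191 CPM in monocytes, where its call (adjusted p = 0.047, edgeR) was lost in limma-voom without and with the random block (adjusted p = 0.065 and 0.061). The chemokine receptor-like Ccrl2 passed in neither population, with 382 and 351 CPM in macrophages and 615 and 855 CPM in monocytes.

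Among single risers outside these lists, Fam111a, a protease that restricts viral replication, was at 151, 147, 138, 137 and 152 CPM in control macrophages and at 149, 148, 140, 160 and 161 CPM in treated ones. Control monocytes had 120, 117, 89.3, 105 and 115 CPM and treated monocytes 147, 150, 153, 163 and 158 CPM, without overlap, which brought monocytes to the macrophage level. Its difference was -0.43, from -0.65 to -0.21 (adjusted p = 0.60, edgeR). Pgap1, which remodels GPI anchors, averaged 20.5 and 20.8 CPM in macrophages and 11.9 ± 2.10 and 20.7 ± 1.99 CPM in monocytes. Fam111a and Pgap1 were past the test for a difference with limma-voom and a random block, each with an adjusted p of 0.039.

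In macrophages only, 155 genes were past the test, 59 higher and 96 lower. The 59 had a median log2 effect of 0.56 in macrophages and 0.24 in monocytes, and the 96 had -1.42 and -0.38. Fmr1, the RNA-binding protein of fragile X syndrome, was at 44.4, 47.6, 45.9, 51.2 and 48.1 CPM in control macrophages and at 37.8, 37.6, 35.1, 43.2 and 42.4 CPM in treated ones, without overlap. Monocytes averaged 42.9 ± 3.11 and 47.0 ± 1.62 CPM. The effects were -0.27 ± 0.07 (adjusted p = 0.041, edgeR) and 0.13 ± 0.07 (adjusted p = 0.17), and the difference -0.41, from -0.61 to -0.20. The macrophage call was lost with limma-voom (adjusted p = 0.060) and with its random block (adjusted p = 0.065), and it held in 7 of 20 fits with 1 library left out. Lpl, lipoprotein lipase, which frees fatty acids from triglycerides, was at 24.4, 23.1, 22.6, 22.2 and 25.6 CPM in control macrophages and at 7.31, 19.7, 12.5, 13 and 17.6 CPM in treated ones. Monocytes averaged 13 ± 2.04 and 14.6 ± 1.67 CPM, so that the mean of macrophages was above that of monocytes in controls and close to it after treatment. Its difference was -0.91, from -1.45 to -0.37. The macrophage call of Lpl (adjusted p = 0.04, edgeR) held in 12 of 20 fits with 1 library left out. It was lost without the 6 control libraries (adjusted p = 0.25).

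Pltp, a phospholipid transfer protein, rose in macrophages, from 181 ± 25.4 to 281 ± 53.9 CPM, and averaged 90.2 and 101 CPM in monocytes. Mmaa, a mitochondrial GTPase of cobalamin metabolism, was at 2.85, 2.51, 2.98, 3.74 and 4.34 CPM in control and 4.66, 4.98, 5.04, 4.65 and 4.60 CPM in treated macrophages. Its level in monocytes averaged 3.47 and 3.38 CPM. The macrophage calls of Pltp and Mmaa (adjusted p = 0.039 and 0.044, edgeR) held in 15 and 10 of 20 fits with 1 library left out. Without the 6 control libraries Pltp did not pass (adjusted p = 0.19) and Mmaa did (adjusted p = 0.022). Csf1, the growth factor of macrophages, and Ctsk, cathepsin K, fell in macrophages, where the fibroblast markers also fell. In monocytes their log2 effects were -0.44 and 0.63, neither past the test, while the fibroblast markers had a median of -2.64 there. Csf1 was at 9.80, 8.73, 44.7, 49.9 and 39.5 CPM in control and at 12.0, 6.47, 5.60, 8.70 and 6.85 CPM in treated macrophages. Ctsk was at 1.51, 1.56, 15.1, 12.9 and 11 CPM in control and at 0.839, 1.14, 1.11, 1.43 and 3.09 CPM in treated macrophages. In macrophages both were high in pairs 3 to 5 only. Leaving out the 6 control libraries, the macrophage effects of Csf1 and Ctsk were -0.23 and 0.00. With the fibroblast covariate they were -0.72 and -1.70, against -1.95 and -2.46 in the edgeR fit without it. Neither call held in limma-voom, without the block (adjusted p = 0.14 and 0.15) or with it (adjusted p = 0.10 and 0.21). The part of fibroblast RNA in these falls was not tested.

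Genes that responded alike were defined as past the test in both populations with 1 sign and with the whole 95% interval of the difference between -1 and 1 on the log2 scale, a factor of 2 either way. This held for 230 genes (1.49%), 182 higher (1.18%) and 48 lower (0.312%). Of all genes 66.0% had such an interval. Of the 207 genes higher in both, 87.9% were called alike, and of the 353 lower in both, 13.6%. The median half-width of the interval was 0.41 in the 207 and 1.97 in the 353, so these shares also reflect interval width. Of the 1319 genes higher in monocytes only, 1140 had an interval within the same bound. The interval alone therefore does not set the genes higher in both apart. With the pair as a block 371 of the 560 had an interval this narrow, as did 72.9% of all genes, and with a bound of 0.5 the count was 121. Over the 182 risers the median effect was near 0.5 in each population. In the fit without the 6 libraries all 182 kept their sign in both, with medians of 0.47 and 0.34. Of the 182, 28 passed in macrophages and 16 in monocytes in that fit.

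Pecam1, the adhesion molecule CD31 of leukocytes and endothelium, was at 66.7, 50.5, 68.0, 43.3 and 63.7 CPM in control macrophages and at 166, 119, 144, 172 and 110 CPM in treated ones. Control monocytes had 39.9, 38.6, 39.3, 33.2 and 40.9 CPM and treated monocytes 71.7, 73.5, 116, 80.0 and 77.1 CPM. Neither population had overlapping groups, which held for 4.11% of all genes as higher in macrophages and 5.09% in monocytes. The effects were 1.28 ± 0.15 (adjusted p = 0.00059, edgeR) and 1.12 ± 0.15 (adjusted p = 0.0028), and their difference 0.16, from -0.29 to 0.61. When the 6 control libraries were omitted, both effects passed, at 1.28 and 1.07. Pecam1 is also an endothelial marker. The sum of 12 endothelial markers was between 112 and 173 CPM in controls and between 194 and 303 CPM after treatment. Pecam1 itself, Flt1 and Eng carry this sum. The mean log2 level of the 12 was 1.02 and 0.66 log2 CPM in control and treated macrophages and 1.57 and 1.38 log2 CPM in monocytes, and the defining endothelial marker Cdh5 averaged 2.52 and 1.88 CPM in control and treated macrophages and 3.83 and 3.01 CPM in monocytes.

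Mmp13, a collagenase, averaged 74.6 ± 12.5 and 163 ± 22.3 CPM in control and treated macrophages and 17.0 ± 2.43 and 41.8 ± 16.9 CPM in monocytes. The log2 effects were 1.13 ± 0.19 in macrophages and 1.29 ± 0.19 in monocytes, although the starting level was far higher in macrophages. Rnf135, a ubiquitin ligase that activates the RNA sensor RIG-I, was at 23.4, 22.2, 18.4, 18.2 and 23.1 CPM in control macrophages and at 34.0, 28.1, 33.6, 31.5 and 30.6 CPM in treated ones. Control monocytes had 13.7, 16.2, 13.8, 12.3 and 13.1 CPM and treated monocytes 19.7, 19.6, 22.6, 21.1 and 19.4 CPM. The effects were 0.59 and 0.57 and the interval of the difference ran from -0.26 to 0.30. Agtrap, which binds the angiotensin receptor, had nearly equal levels as well as effects: 54.3 ± 3.68 and 73.2 ± 5.62 CPM in macrophages and 53.7 ± 5.47 and 72.8 ± 5.80 CPM in monocytes, with a difference of -0.01 from -0.24 to 0.23. Gpr18, a G protein-coupled receptor of leukocytes, averaged 15.2 and 28.9 CPM in macrophages and 12.7 and 23.2 CPM in monocytes. The next 4 genes come from transport, cytokine and receptor signalling roles and had the same pattern. Slc31a2, a copper transporter, averaged 78.6 and 134 CPM in macrophages and 65.9 and 109 CPM in monocytes. Ebi3, a subunit of interleukin-27, averaged 44.0 and 60.1 CPM in macrophages and 18.2 and 28.1 CPM in monocytes. Tlr4, the receptor for lipopolysaccharide, averaged 62.5 and 79.2 CPM in macrophages and 42.1 and 63.9 CPM in monocytes, and its macrophage call (adjusted p = 0.047, edgeR) was lost in limma-voom without and with the random block (adjusted p = 0.076 and 0.072). Syk, the kinase of Fc and C-type lectin receptors, averaged 231 and 306 CPM in macrophages and 404 and 573 CPM in monocytes. Differences of these 5 genes were between -0.26 and 0.06, and each interval lay within -0.54 and 0.51.

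**Figure D5:**
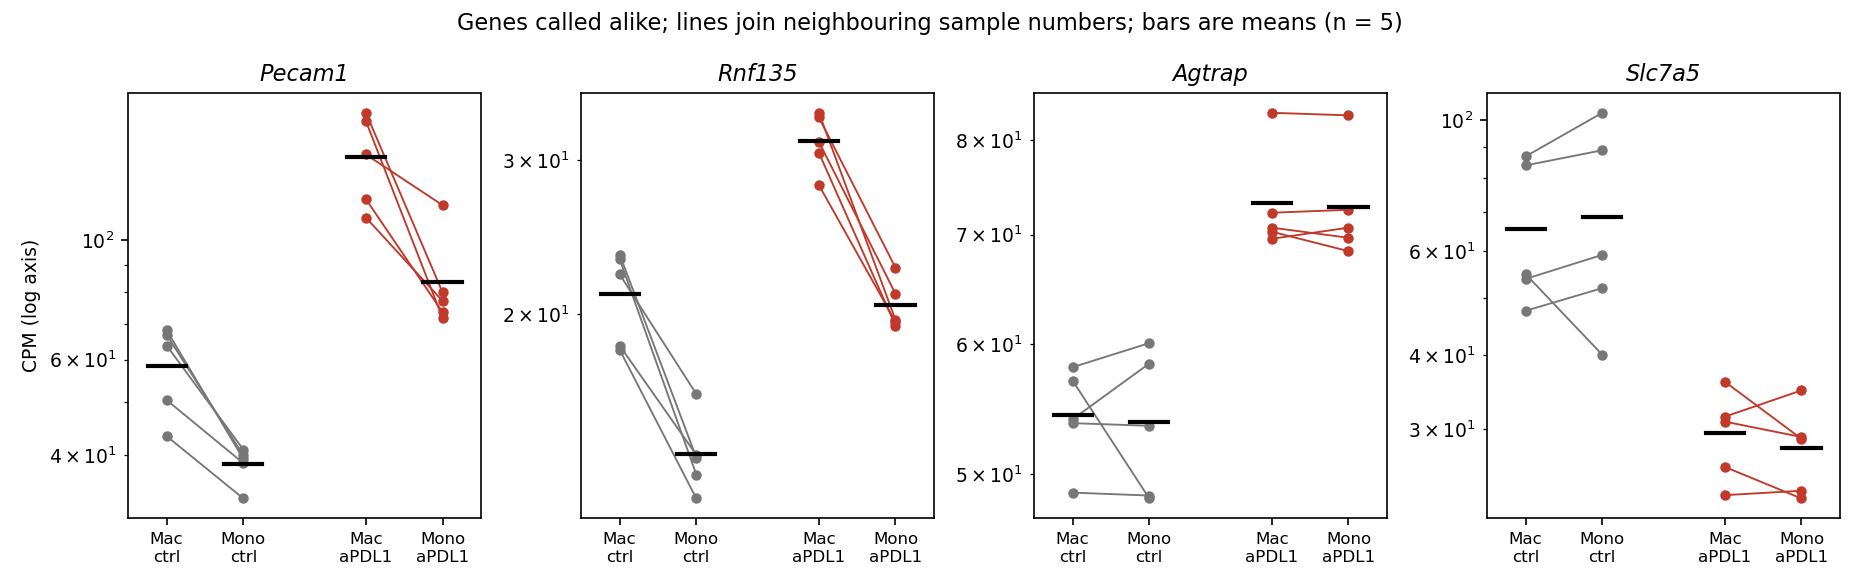
CPM on a log axis in each of the 20 libraries for Pecam1, Rnf135, Agtrap and Slc7a5, genes called alike; grey lines join control pairs, red lines treated pairs, and black bars are means of 5. The shift from grey to red is about the same in macrophages and monocytes, upward for 3 genes and downward for Slc7a5, whether the starting levels differ (Pecam1, Rnf135) or not (Agtrap, Slc7a5).

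The promoters of Gpr18 and Mmp13, both alike, and of Ddx60, past the test in monocytes only, are shown because genes that rose hold an interferon-type element more often than promoters at large. Capitals mark GAAA, any 2 bases and GAAA, the core of the interferon-stimulated response element, on either strand, in the 250 bases upstream of the RefSeq start in GRCm38.p6. Gpr18 lies at chr14:121915889-121916138 on the minus strand, Mmp13 at chr9:7272264-7272513 and Ddx60 at chr8:61927837-61928086 on the plus strand.
Gpr18: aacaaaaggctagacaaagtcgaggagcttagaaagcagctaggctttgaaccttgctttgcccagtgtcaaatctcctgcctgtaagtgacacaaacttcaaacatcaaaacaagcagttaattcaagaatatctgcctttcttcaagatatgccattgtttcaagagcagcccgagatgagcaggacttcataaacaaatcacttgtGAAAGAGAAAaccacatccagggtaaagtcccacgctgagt
Mmp13: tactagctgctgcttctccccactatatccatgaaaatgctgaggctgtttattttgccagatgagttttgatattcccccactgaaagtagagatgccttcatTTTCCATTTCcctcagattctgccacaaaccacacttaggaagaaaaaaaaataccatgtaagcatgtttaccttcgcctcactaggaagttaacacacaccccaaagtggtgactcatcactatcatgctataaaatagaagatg
Ddx60: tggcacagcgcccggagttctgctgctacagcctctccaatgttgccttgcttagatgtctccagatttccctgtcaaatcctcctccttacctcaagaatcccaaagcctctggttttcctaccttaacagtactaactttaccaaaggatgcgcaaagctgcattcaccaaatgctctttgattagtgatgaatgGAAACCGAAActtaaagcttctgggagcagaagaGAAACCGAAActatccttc
The motif was in 12.0% of the 167 promoters of the alike risers, in 5.98% of the 1355 of the monocyte-only risers and in 2.25% of the 356 of genes lower in both, against 2.98% of all promoters. It was in 52.0% of the 25 promoters of the interferon-gamma list and in 38.7% of the 31 of the type I list, and the risers include members of these lists.

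Among the 48 genes called alike as lower, those with the smallest p in both populations include a pair of amino acid transporters. Slc7a1, the carrier of arginine and lysine, was at 50.6, 60.1, 54.2, 78.5 and 49.0 CPM in control and at 28.0, 36.3, 29.9, 30.5 and 43.4 CPM in treated macrophages. In monocytes it was at 47.9, 55.3, 54.4, 81.8 and 53.9 CPM and at 31.8, 33.0, 28.1, 27.2 and 36.9 CPM. Both populations had nearly the same levels before and after, and their groups did not overlap, as for 2.83% of all genes as lower in macrophages and 2.13% in monocytes. The effects were -0.80 ± 0.16 (adjusted p = 0.036, edgeR) and -0.90 ± 0.16 (adjusted p = 0.0034). Slc7a5, the carrier of large neutral amino acids, averaged 65.5 and 29.5 CPM in macrophages and 68.6 and 27.9 CPM in monocytes. Ank, which exports pyrophosphate, averaged 27.5 and 13.9 CPM in macrophages and 62.4 and 37.3 CPM in monocytes. Ddah2, of dimethylarginine metabolism, averaged 6.17 and 2.44 CPM in macrophages and 8.30 and 3.24 CPM in monocytes, and Mbnl3, a splicing regulator, 9.94 and 6.56 CPM and 8.17 and 5.66 CPM. With those 6 libraries left out the effects of these 5 genes ran from -0.85 to -0.56 in macrophages and from -0.82 to -0.53 in monocytes. Their macrophage calls were all lost in that fit, with adjusted p from 0.071 to 0.15 (edgeR). Of the 48 genes, 0 passed there in macrophages and 4 in monocytes.

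Sterol and lipid synthesis genes fell in 6 of 26 in macrophages and 15 of 26 in monocytes, while 1 and 4 rose, and 6 were called alike. The medians were -0.30 and -0.52. Over all genes 2.92% and 15.4% fell, 1.73% and 9.92% rose and 1.49% were called alike. The counts of risers in this list are too near the background to be a result about it. Lss, lanosterol synthase, was at 17.8, 12.2, 23.9, 25.6 and 18.6 CPM in control and at 7.90, 10.8, 6.66, 9.07 and 8.74 CPM in treated monocytes, without overlap. Macrophages averaged 21.0 ± 5.78 and 14.2 ± 1.19 CPM. The difference was 0.63, from 0.06 to 1.20, and it was 0.66 without the 6 control libraries. Fasn, fatty acid synthase, averaged 121 and 81.5 CPM in macrophages and 101 ± 46.1 and 39.7 ± 9.05 CPM in monocytes. Outside this list, Cd63, a tetraspanin of lysosomes, averaged 149 and 123 CPM in macrophages and 69.9 ± 35.1 and 23.5 ± 7.26 CPM in monocytes. Timp2, an inhibitor of matrix metalloproteases, averaged 198 and 135 CPM in macrophages and 124 ± 73.2 and 34.6 ± 14.2 CPM in monocytes. Fasn, Cd63 and Timp2 were highest in monocytes in control pairs 3, 4 and 5, and without the 6 libraries their differences were 0.30, 0.31 and 0.32.

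Antigen presentation genes are given by class. Over all genes 1.73% rose in macrophages and 9.92% in monocytes, and 1.49% were called alike. Of 24 MHC class I presentation genes 5 rose in macrophages and 19 in monocytes, 5 of them alike, with medians of 0.33 and 0.51. H2-Q6, a class I gene whose reads can be shared with close relatives and which is therefore uncertain, averaged 178 and 302 CPM in control and treated monocytes, with log2 effects of 0.24 in macrophages and 0.76 in monocytes. Of 14 MHC class II presentation genes 1 rose in macrophages and 4 in monocytes, with medians of 0.51 and 0.46 and a median difference of 0.01. H2-Ab1, a class II beta chain, was at 5006, 3598, 6879, 3778 and 6390 CPM in control and at 7913, 7498, 10014, 8430 and 7551 CPM in treated macrophages, and averaged 2360 ± 877 and 3676 ± 958 CPM in monocytes. It passed in neither population (0.69 ± 0.25, adjusted p = 0.091, edgeR, and 0.64 ± 0.25, adjusted p = 0.062). The monocyte effect passed with the random block in limma-voom (adjusted p = 0.034), and DESeq2 called both (adjusted p = 0.031 and 0.033). Ciita, the transactivator of class II genes, ranged from 72 to 200 CPM in control and from 168 to 257 CPM in treated macrophages and averaged 98.4 and 179 CPM in monocytes. Its effect was 0.87 in each, past the test in monocytes only (adjusted p = 0.029, edgeR), with an interval of the difference from -0.82 to 0.82.

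Both PD-1 ligand genes passed as higher in both populations in edgeR. Cd274, the target of the antibody, was at 176, 242, 206, 183 and 349 CPM in control and at 421, 345, 595, 419 and 390 CPM in treated macrophages. In monocytes it was at 290, 400, 243, 259 and 420 CPM and at 776, 596, 1359, 606 and 776 CPM. The effects were 0.91 ± 0.24 (adjusted p = 0.044, edgeR) and 1.35 ± 0.24 (adjusted p = 0.0034), and the interval of the difference, from -1.14 to 0.26, was too wide to call them alike. Leaving out the 6 control libraries, the effects were 1.06 and 1.23, and neither passed. With 1 library left out, the macrophage call of Cd274 held in 12 of 20 fits and the monocyte call in 20. Pdcd1lg2, which encodes PD-L2, was at 3.11, 2.85, 5.85, 5.44 and 10.5 CPM in control and at 13.2, 14.1, 96.4, 17.8 and 17.6 CPM in treated macrophages, with 4.48 ± 1.78 and 13.2 ± 6.72 CPM in monocytes. Its treated value in pair 8 lay far above the others in both populations. Its monocyte call (adjusted p = 0.039, edgeR) was lost with limma-voom (adjusted p = 0.074), with its random block (adjusted p = 0.061) and without Monocyte ctrl replicate 5 (adjusted p = 0.060). Its macrophage call (adjusted p = 0.036, edgeR) was lost without Macrophage ctrl replicate 5 (adjusted p = 0.086). With 1 library left out, the monocyte call of Pdcd1lg2 held in 13 of 20 fits and the macrophage call in 17. Cfb, complement factor B, averaged 538 and 1030 CPM in macrophages and 765 and 2054 CPM in monocytes.

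Arg1, Mrc1 and Ly6c2, often used to describe myeloid states, passed in neither population. Arg1, arginase 1, averaged 402 ± 105 and 748 ± 464 CPM in macrophages and 877 ± 246 and 1531 ± 815 CPM in monocytes. Its libraries varied widely but the pairs moved together: the interval of the difference was -1.01 to 1.20 without the block and -0.20 to 0.26 with it. Mrc1, the mannose receptor, averaged 232 and 210 CPM in macrophages and 21.3 and 18.9 CPM in monocytes, with effects of -0.14 ± 0.30 and -0.17 ± 0.31. Ly6c2, which shares reads with a close relative and is uncertain, averaged 5.42 and 11.1 CPM in macrophages and 910 and 1575 CPM in monocytes.

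The genes lower in both but not called alike were mostly large falls with wide intervals, 305 genes with medians of -2.79 in macrophages and -2.62 in monocytes. The fibroblast markers are among them: 11 of 19 fell in macrophages and 13 in monocytes, with medians of -3.0 and -2.64 and none alike. Over all genes 2.92% and 15.4% fell. Angptl2, a secreted angiopoietin-like protein, averaged 63.9 ± 17.2 and 23 ± 5.86 CPM in macrophages and 70.1 ± 33.2 and 14.7 ± 5.45 CPM in monocytes. Cd109, a GPI-anchored co-receptor of TGF-beta, was even across control macrophages. Its level was 4.13, 4.70, 4.85, 4.88 and 4.71 CPM in control macrophages and at 1.01, 1.14, 1.69, 0.784 and 1.52 CPM in treated ones. In monocytes it was at 3.01, 4.48, 2.68, 3.83 and 2.25 CPM and at 2.0, 1.51, 2.65, 1.73 and 2.14 CPM, with overlap. Its effects were -1.92 ± 0.22 (adjusted p = 0.00059, edgeR) and -0.70 ± 0.22 (adjusted p = 0.026), with a difference of -1.22 from -1.87 to -0.58 that passed with limma-voom and a random block (adjusted p = 0.039). In the fit without the 6 libraries the macrophage effect was -1.84 (adjusted p = 0.015).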

How the data were processed

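RNA-seq was made from macrophages and monocytes sorted from MC38 tumours, 20 libraries in 4 groups of 5, grouped by the labels' cell type and treatment. The submitters' processing notes name GSNAP and GRCm38. No source used here gives the counting tool, the annotation or the strand setting. The authors deposited, per the file headers, a count of reads for each of 36528 gene models and an nRPKM value. The deposited RPKM column was compared with the counts (each value is the count over a gene length and a library factor of 0.807 to 1.19) and was not used in tests. RefSeq symbols of GRCm38.p6 matched 31049 models (85.0%), which hold 97.97% of the counts. Totals ran from 30191509 to 36514133 counts per library, and 3 counts equal 0.0994 CPM in the shallowest, which covers counting error only.

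The analysis used edgeR 4.0.16 under R 4.3.3, with filterByExpr (15390 genes), TMM scaling, 1 mean per group, the quasi-likelihood test over all 20 libraries and Benjamini-Hochberg adjustment over all genes with a threshold of 0.05. The difference of effects is (macrophage aPDL1 - ctrl) - (monocyte aPDL1 - ctrl). Its 95% interval uses the standard error from the test's F value. CPM values are scaled by TMM library sizes. The fits were tested on simulated counts drawn with no correlation within pairs. Such counts cannot show how either fit behaves where pairs deviate together. Libraries with neighbouring sample numbers pair by the data: all 10 correlations of their deviations exceeded 0.1 (0.218 to 0.722), and 18 of 20 libraries correlated best with their own neighbour. The labels do not state that a pair shares a tumour. Replicate numbers follow the order of deposit and only name samples.

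Genes were named by a fixed rule: an assigned symbol and a mean log2 CPM of at least 1, with the smallest p of the difference among all genes, among macrophage-only (6 each way) and monocyte-only calls (10 each way), the smallest larger p among genes past the test in both (10 higher, 6 lower), 2 members of each list by p of the difference, 12 fixed genes, and, added after their values were seen, the genes past the test with the block. The text gives part of the 119 genes this names. The genes and lists were chosen with earlier results of these data known. Alternatives were other scaling, DESeq2 1.42.0, limma-voom 3.58.1, no low-count filter, each population alone, the pair as a fixed or random block, a fibroblast covariate, and libraries left out. Promoter sequences are RefSeq's, from GRCm38.p6. Some items are not reported here.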

Additional observations from a re-analysis of the deposited data

Results flagged for a closer look

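Iigp1, Samsn1 and Chpf differed between the populations in the fit with the pair as a block, by -0.79, -0.60 and 2.24 on the log2 scale, and did not in the fit without it.

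In 63 named genes and 4 groups, 252 sets of 5 libraries were examined for a library far from the other 4, and 17 were found; chance alone flags about 1 in 20 sets. Values are log2 CPM. The treated monocyte library of pair 8 (Monocyte aPDL1 replicate 2) was high for Pecam1 (6.86 against 6.17 to 6.32), Mmp13 (6.16 against 4.99 to 5.27), Pdcd1lg2 (4.65 against 3.14 to 3.54) and Klf6 (9.34 against 8.99 to 9.08), and low for Prune2 (2.65 against 3.04 to 3.17) and Mbnl3 (2.19 against 2.53 to 2.64). The treated macrophage library of the same pair (replicate 4) was high for Pdcd1lg2 (6.59 against 3.73 to 4.16) and Agtrap (6.38 against 6.12 to 6.17). Both control libraries of pair 5 were high for Iigp1, Macrophage ctrl replicate 3 at 8.64 (against 7.78 to 8.02) and Monocyte ctrl replicate 1 at 7.68 (against 6.67 to 6.89). Monocyte ctrl replicate 3 (pair 4) was high for Prune2 (4.64 against 4.15 to 4.20) and Slc7a1 (6.35 against 5.58 to 5.79) and low for Pecam1 (5.06 against 5.27 to 5.35). Macrophage ctrl replicate 5, of the same pair, was high for Fasn (7.50 against 6.65 to 6.85). Macrophage ctrl replicate 2 was low for Cd109 (2.07 against 2.25 to 2.31). Macrophage aPDL1 replicate 1 was low for Angptl2 (3.71 against 4.57 to 4.78), and replicate 2 for Mrc1 (6.84 against 7.68 to 7.94).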

How the results depend on the processing

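The number of genes past the test for the difference was 0 with edgeR, 5 with DESeq2, 3 with the fixed replicate block and 8 with limma-voom and a random replicate block. With the block and a fibroblast covariate, chosen after seeing the data, it was 9. The macrophage count of 715 became 1834 with DESeq2, 191 with limma-voom (148 higher, 43 lower), 243 with the random replicate block, 1193 from the 10 macrophage libraries alone, 2 with a fibroblast covariate of 1 slope or of 1 slope per population, and 70 without the 6 control libraries. The monocyte count of 3900 became 2019 from its own 10 libraries, 3 and 0 with the covariates, and 83 without the 6 libraries. The 560 genes past the test in both became 1382 with DESeq2, 132 with limma-voom, 349 with no filter on low counts, 196 with the random replicate block, 0 with either covariate and 24 without the 6 libraries. The 230 called alike became 509 with DESeq2, 109 with limma-voom, 132 with no filter, 0 with either covariate, 18 without the 6 libraries and 121 with a bound of 0.5. The cause of these moves was not tested.

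With 1 library left out, the difference count ran from 0 to 41 (41 without Monocyte ctrl replicate 5, 1 without Macrophage ctrl replicate 4), the macrophage count from 14 to 1928, the monocyte count from 1883 to 5359, the count in both from 12 to 1413 and the alike count from 8 to 527. The macrophage count fell to 14 without Macrophage ctrl replicate 5 or Macrophage aPDL1 replicate 4, 19 without Macrophage ctrl replicate 1, 35, 124 and 217 without Macrophage aPDL1 replicates 1, 3 and 5, 77 and 382 without Monocyte ctrl replicates 1 and 2, 350 without Macrophage ctrl replicate 3, and 407, 411 and 394 without Monocyte aPDL1 replicates 1, 4 and 5. It was 1928 and 1415 without Macrophage ctrl replicates 4 and 2, 1077 and 1565 without Monocyte ctrl replicates 4 and 5, and 1212 without Monocyte aPDL1 replicate 3. The monocyte count was 1883 and 2211 without Monocyte ctrl replicates 3 and 4, and 2451 and 2586 without Monocyte aPDL1 replicates 2 and 4. With the replicate block and 1 pair left out the difference count ran from 0 to 636. Among single genes, the macrophage effect of Ctsk was 0.00 without the 6 libraries, and the monocyte effects of Mki67 and Timp2 were both 0.05 with a covariate slope per population. The depth allows levels down to 0.0994 CPM in the shallowest library.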
